A study of Mus musculus with 6 samples.

Results

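The enzymes that liver cells use to dispose of nitrogen and to break down amino acids were examined in wild-type mice and in mice lacking SIRT7, a nuclear NAD-dependent deacylase. The set was chosen by name and holds 9 genes, namely Cps1, Otc, Ass1, Asl, Arg1, Gls2, Hal, Sds and Tdo2. Liver RNA of 3 wild-type and 3 SIRT7 knockout samples was hybridised to 1 Affymetrix array each, and the labels state that all samples were kept under the same conditions. The sources used here do not give strain, age, sex, diet, feeding state or time of day, nor how the knockout allele was made and which cells lack SIRT7. A gene was read through probe sets annotated with its symbol alone, and each gene was represented by its brightest probe set (by the mean of all 6 arrays). By this rule 6 of the 9 genes could be measured, with 9 probe sets in all. Ass1 shared its 1 probe set with another gene symbol, and Ass1, Gls2 and Sds are not analysed here. All 6 measured genes passed the filter on dim genes (a mean log2 value of at least 4) and were among the 8343 genes tested, out of 12393 with a probe set.

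The urea cycle turns ammonia, which is toxic, into urea for excretion, and in mammals the complete cycle runs in hepatocytes. Cps1 and Otc work in the mitochondrion and Ass1, Asl and Arg1 in the cytosol. Gls2, Hal, Sds and Tdo2 encode the enzymes that begin the breakdown of glutamine, histidine, serine and tryptophan. In the liver lobule the urea cycle enzymes are richest in the hepatocytes that lie near the portal vein, and many genes of amino acid breakdown respond to glucagon, glucocorticoids and dietary protein. The title of the study ties SIRT7 to the activity of the transcription factor MYC, and the comparison made here asks how far the mRNA levels of these enzymes differ in livers without SIRT7.

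Hal and Tdo2 had the largest differences among the 6 genes, and the bases before their start sites are shown for that reason, as chosen after their values were seen. RefSeq promoter windows of GRCm38.p6 were at hand for 4 of the 9 genes, 3 of them measured (Hal, Tdo2 and Otc). Both sequences run 5′ to 3′ on the strand of the gene and end at the base before the annotated start. Capitals mark matches to the motifs searched.
Hal, chr10:93488518-93488767, plus strand: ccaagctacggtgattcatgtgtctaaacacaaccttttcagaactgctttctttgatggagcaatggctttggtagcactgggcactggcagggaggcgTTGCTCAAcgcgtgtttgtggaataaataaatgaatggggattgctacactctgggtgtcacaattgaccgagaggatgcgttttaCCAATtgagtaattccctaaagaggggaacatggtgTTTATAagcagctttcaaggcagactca
Tdo2, chr3:81975729-81975978, minus strand: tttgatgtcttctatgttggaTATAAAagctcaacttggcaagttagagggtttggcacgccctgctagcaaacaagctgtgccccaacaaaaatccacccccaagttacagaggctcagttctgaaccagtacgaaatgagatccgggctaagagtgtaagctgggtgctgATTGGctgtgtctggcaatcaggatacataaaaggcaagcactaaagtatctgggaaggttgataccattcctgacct
The first motif, read like all the others on both strands, was TATAAA, the core of a TATA box. It lay at -28 to -23 in Hal, on the opposite strand, and at -229 to -224 in Tdo2, and 12.4% of all 32851 windows of 250 bases in the table held it. The second was CCAAT, bound by the factor NF-Y. It lay at -64 to -60 in Hal and, on the opposite strand, at -78 to -74 in Tdo2, and 33.9% of all windows held it. A C/EBP-type site, searched as TTGCNNAA, lay in Hal at -150 to -143 and had 0 matches in Tdo2 and Otc, against 9.56% of all windows. The E-box CACGTG, which MYC and clock factors bind, had 0 matches in all 3 windows (6.02% of all windows). The same was so for the core TGTTCT of a glucocorticoid receptor site (16.1%) and for the cAMP response element TGACGTCA (1.55%). Otc had 0 matches to any of the 6 motifs. None of the matches overlapped another. They describe letters in a window and were not tested as binding sites.

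The arrays were close to each other, with Pearson correlations across genes of 0.962 to 0.984 within a group and 0.949 to 0.979 between groups. The deposited log2 values had array medians between 5.69 and 5.77. Sirt7 itself matched the labels in every liver, with a mean of 9.74 ± 0.15 (SD, n = 3) for the wild type and 2.78 ± 0.37 for the knockout (limma adjusted p = 3.99e-06). Hepatocyte markers were bright, with all 9 measured markers above the minimum. Their summed level, as log2 of the sum of linear values, lay between 16.05 and 16.22 in wild-type and between 15.83 and 16.32 in knockout livers. Knockout replicates 1 and 2 had the lowest sums and knockout replicate 3 the highest. In whole liver, fewer hepatocytes and less mRNA per hepatocyte cannot be told apart.

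No enzyme of the set passed the test between knockout and wild-type livers. Limma called 0 of the 6 measured genes at a Benjamini-Hochberg adjusted p under 0.05, against 2 of 8343 tested genes (0.024%), Sirt7 and Cxcl14, and 0 of the 6 had an unadjusted p under 0.05, against 6.46% of all tested genes. The groups did not overlap in 0 of the 6, against 9.74% of all tested genes (4.27% higher and 5.48% lower in the knockout). The mean was lower in the knockout livers for 5 of the 6 genes, where 54.6% of all tested genes were lower. The median difference (knockout minus wild type, log2) was -0.13 over the 6 genes and -0.032 over all tested genes. A miss at this threshold with 3 livers a group does not show that the levels are alike. The 95% intervals given for each gene mark the differences in array signal that the fit allows. All 6 genes were bright, with means between percentile 86.4 (Hal) and 98.5 (Otc) of the gene means. Whether the array signal flattens differences at such levels was not tested. The labels do not state that each sample is a separate animal. If some are not, the p-values reflect a spread between samples that may be technical.

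**Figure D1:**
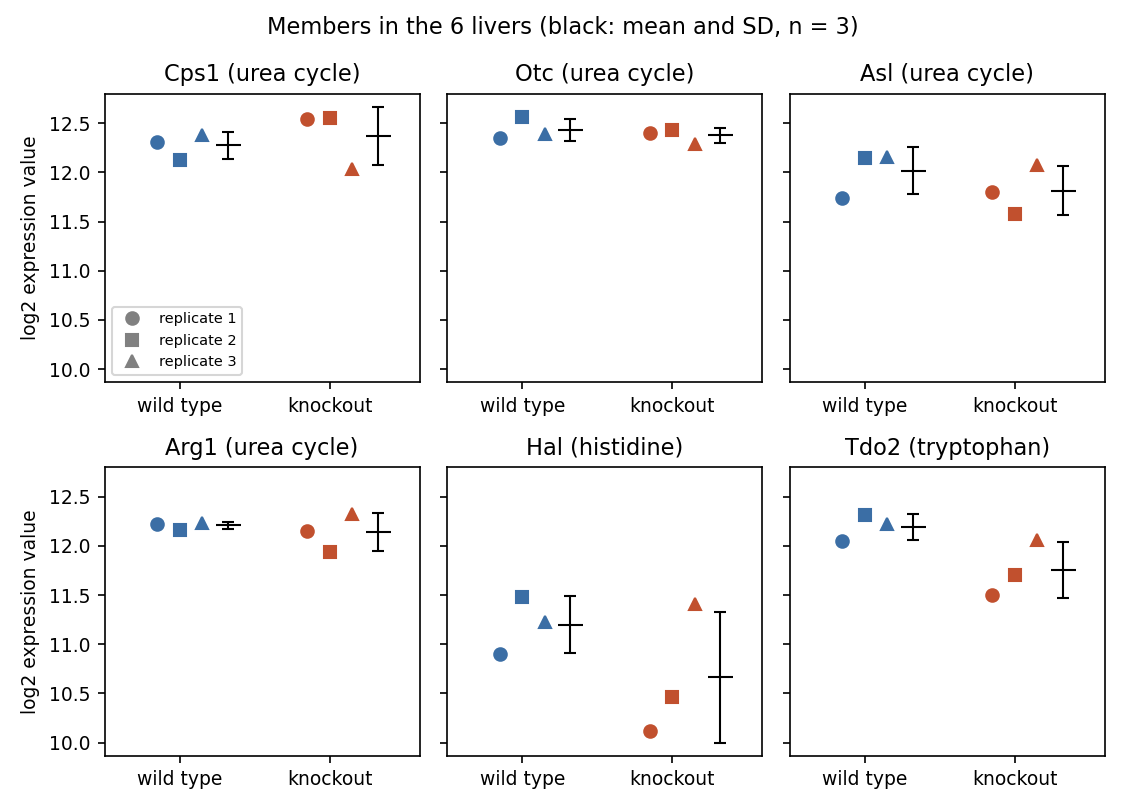
Log2 expression value of the brightest probe set of each measured gene (vertical axis) in the 3 wild-type (blue) and 3 knockout livers (red), with 1 symbol per replicate and the group mean ± SD (n = 3) in black. The groups overlap in all 6 panels, and knockout replicates 1 and 2 lie below every wild-type liver for Hal and Tdo2, while knockout replicate 3 does not.

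Cps1 encodes carbamoyl phosphate synthetase, which takes up free ammonia in the first and rate-limiting step of the cycle. Its log2 values, given here and for the other genes in the order of replicates 1 to 3, were 12.31, 12.12 and 12.38 (wild type) and 12.54, 12.55 and 12.03 (knockout). The knockout livers thus held both the highest and the lowest value. Knockout minus wild type was 0.10 (SE 0.21, 95% interval -0.38 to 0.58, limma adjusted p = 0.934). Cps1 was the only measured gene of the set with a higher mean in the knockout livers.

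Otc encodes ornithine transcarbamylase, which joins carbamoyl phosphate to ornithine to give citrulline. Its brightest probe set read 12.35, 12.56 and 12.39 in the wild type and 12.40, 12.43 and 12.29 in the knockout. All 6 values lay within 0.27 log2 units, the narrowest range of the measured genes. The difference was -0.057 (SE 0.18, 95% interval -0.46 to 0.34, limma adjusted p = 0.961), and its sign turned to 0.016 under quantile normalization and to 0.0067 without wild-type replicate 2.

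The probe sets of Otc did not give the same picture. The second was nearly as bright and differed by 0.093 (SE 0.23). The third read 9.59, 9.43 and 9.10 in the wild type and 8.90, 8.50 and 8.75 in the knockout. On that probe set every knockout value lay under every wild-type value. The difference was -0.66 (SE 0.21, 95% interval -1.14 to -0.17), with an unadjusted limma p of 0.0134 and an adjusted p of 0.785 over the 13143 probe sets with 1 symbol and a mean of at least 4. The difference between the probe sets was not tested, and the sources used here do not say which transcript forms each one reads.

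Asl encodes argininosuccinate lyase, which releases arginine and fumarate. Its probe set read 11.74, 12.15 and 12.16 in the wild type and 11.80, 11.57 and 12.07 in the knockout. Wild-type replicate 1 was at the level of knockout replicate 1, so the groups overlapped broadly. The difference was -0.20 (SE 0.22, 95% interval -0.69 to 0.29, limma adjusted p = 0.863).

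Arg1 encodes arginase 1, which splits arginine into urea and ornithine and so closes the cycle. The Arg1 probe set read 12.23, 12.16 and 12.23 in the wild type and 12.15, 11.94 and 12.33 in the knockout. The wild-type livers were nearly identical (SD 0.0395), and the knockout livers spread to both sides of them (SD 0.195). The difference was -0.069 (SE 0.19, 95% interval -0.49 to 0.35, limma adjusted p = 0.957), and it was 0.031 without knockout replicate 2. Arg2, the mitochondrial arginase, was under the minimum with a mean of 3.98.

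Hal encodes histidine ammonia-lyase, which removes the amino group of histidine in the first step of its breakdown. The Hal probe set read 10.90, 11.48 and 11.22 in the wild type and 10.12, 10.47 and 11.41 in the knockout. Knockout replicates 1 and 2 were below every wild-type liver, and knockout replicate 3 was above wild-type replicates 1 and 3. Its values spanned 1.35 log2 units over the 6 livers, the widest range of the set. The difference was -0.53 (SE 0.33, 95% interval -1.29 to 0.22, limma adjusted p = 0.796).

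Tdo2 encodes tryptophan 2,3-dioxygenase, which opens the ring of tryptophan and starts the kynurenine pathway. The brightest Tdo2 probe set read 12.05, 12.31 and 12.22 in the wild type and 11.50, 11.70 and 12.06 in the knockout. The order was as for Hal, except that knockout replicate 3 stood only just above the lowest wild-type liver. The difference was -0.44 (SE 0.21, 95% interval -0.91 to 0.037), with an unadjusted limma p of 0.0666, the smallest of the 6 genes, and an adjusted p of 0.775. The unadjusted limma p of Tdo2 moved with the settings. Keeping the dim genes in the test gave 0.0471 (0.781 after adjustment), and an intensity trend gave 0.0311 (0.766 after adjustment). The other unweighted settings with all arrays gave values above 0.05, from 0.0555 (median centring) to 0.0962 (mean of probe sets). Leaving out 1 array gave 0.0155 (knockout replicate 3) to 0.204 (knockout replicate 1). Array weights gave 0.00269, in a fit described below. The second Tdo2 probe set pointed the same way with a smaller difference of -0.21 (SE 0.19).

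**Figure D2:**
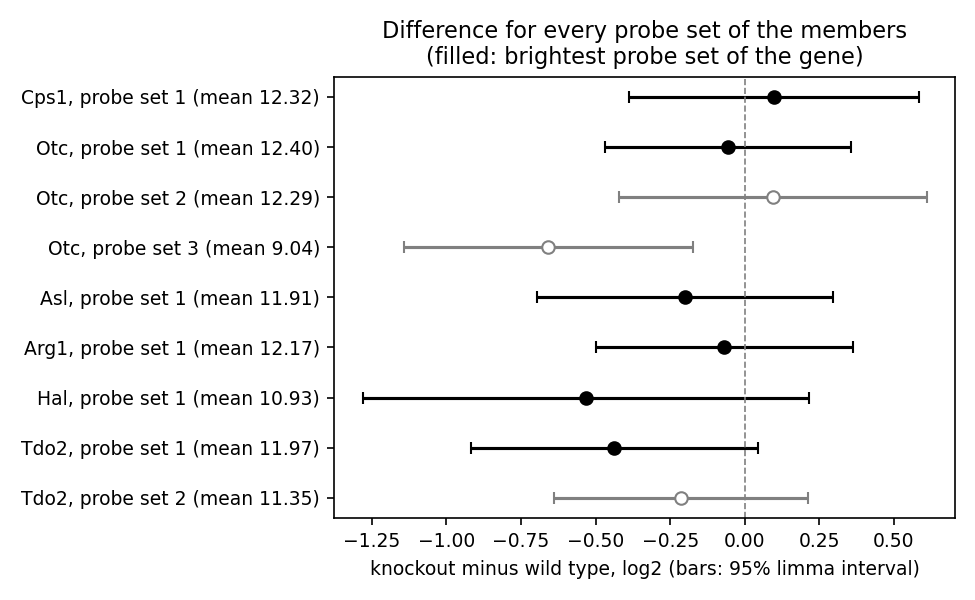
Knockout minus wild-type difference in log2 units (horizontal axis) for all 9 probe sets of the 6 measured genes, with 95% limma intervals from the fit over 13143 probe sets. Filled points are the brightest probe set of each gene, and the third Otc probe set is the only one whose interval leaves out 0.

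The values of Hal and Tdo2 leaned on single livers. In the limma fit without knockout replicate 3 the differences were -0.90 for Hal (unadjusted p = 0.00691) and -0.59 for Tdo2 (unadjusted p = 0.0155), with an adjusted p = 0.265 for both. Without knockout replicate 1 they were -0.26 and -0.31. Limma's array weights put 6.12 on knockout replicate 2 and 0.31 on knockout replicate 3, so that most of the weight of the knockout group lay on 1 array. Under these weights both genes fell, Hal by 0.83 (limma adjusted p = 0.0247) and Tdo2 by 0.53 (adjusted p = 0.0267). That fit called 1748 of 8343 tested genes, against 2 without weights.

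Some hepatocyte markers, but not all, moved with the same livers. Alb, which encodes serum albumin, read 12.80, 12.90 and 12.94 in the wild type and 12.41, 12.45 and 13.10 in the knockout. Apob, the main protein of very low density lipoprotein, read 12.91, 13.09 and 12.98 in the wild type and 12.29, 12.29 and 13.05 in the knockout. As for Hal and Tdo2, knockout replicates 1 and 2 lay below every wild-type liver and knockout replicate 3 did not. This order held for 5 of 9 hepatocyte markers (Alb, Apoa1, Apoa2, Apob and Fgb) and 3 of the 6 enzymes (Arg1, Hal and Tdo2). Ttr, Fgg, Cyp2e1 and Hnf4a did not show it. It held for 17.3% of all tested genes and for 26.8% of the 1072 tested genes with a mean of at least 11. The order was noticed in these values and is a description, and the part of the hepatocyte markers in the differences of Hal and Tdo2 was not tested. Cps1 and Otc ran the other way within the knockout group, with their lowest value in knockout replicate 3.

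**Figure D3:**
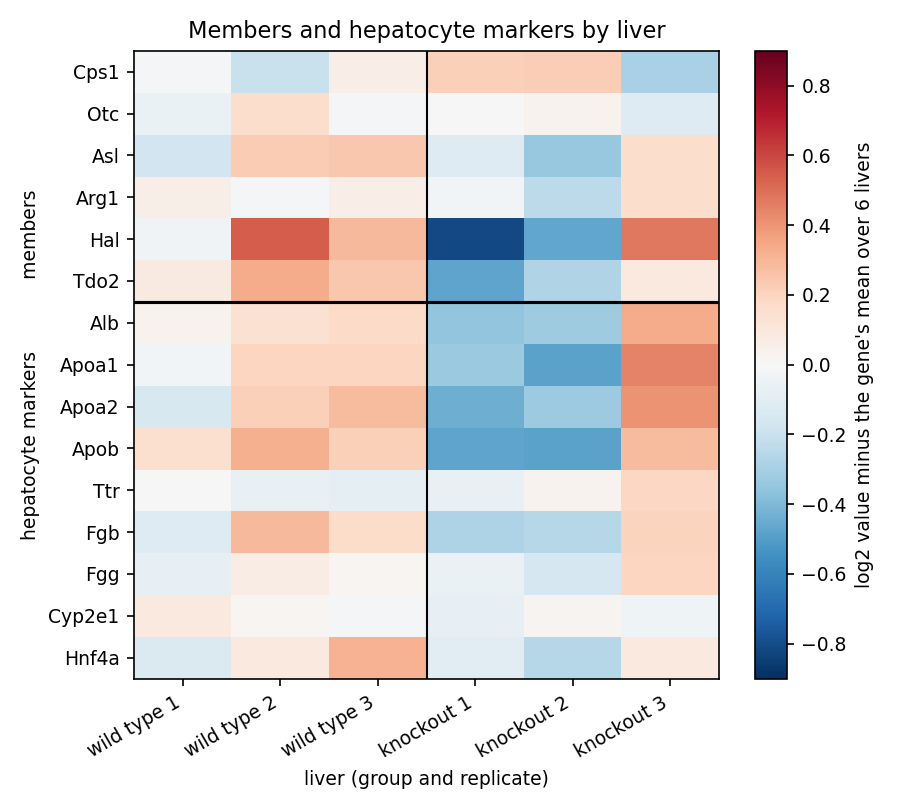
Log2 value minus the mean of the gene over the 6 livers (colour scale, blue low and red high) for the 6 measured enzymes (top) and 9 hepatocyte markers (bottom), with 1 column per liver. Hal reaches -0.81 in knockout replicate 1 and 0.48 in knockout replicate 3, a change of sign that 8 of the 9 markers share, all but Cyp2e1. Knockout replicate 3 was the highest knockout liver for 8 of the 9 markers and for 47.4% of all tested genes.

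Beside the 6 enzymes stand 95 further tested genes of amino acid handling, from 8 lists with 125 entries. Limma called 0 of the 95. At an unadjusted p under 0.05 there were 2 with higher and 4 with lower values in the knockout livers, against 3.04% and 3.42% of all tested genes. The groups did not overlap in 3 with higher and 6 with lower values, against 4.27% and 5.48%. Their median difference was -0.084, with 57 of 95 lower. The shares lie near the background and are no result about these genes.

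Differences among the genes that feed and serve the urea cycle ran from -0.87 to 0.29. The lowest was that of Asns, the asparagine synthetase gene, which read 11.88, 8.99 and 10.62 in the wild type and 8.38, 9.60 and 10.90 in the knockout (SE 0.77). Its values spread widely in both groups, which overlapped. Nags makes the activator that Cps1 needs and differed by 0.080 (SE 0.24). Slc25a15, the carrier of ornithine and citrulline across the mitochondrial membrane, differed by -0.0037 (SE 0.19). Glul, the glutamine synthetase of the hepatocytes around the central vein, differed by -0.030 (SE 0.21), and by 0.144 on its dimmer probe set. Of the 19 tested genes on this list, 7 were higher and 12 lower, with a median of -0.03. Its 1 gene with an unadjusted p under 0.05 was Aldh18a1, an enzyme of proline and ornithine synthesis, with means of 6.38 ± 0.59 (SD, n = 3) for the wild type and 5.59 ± 0.46 for the knockout (limma adjusted p = 0.772).

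The histidine and tryptophan lists had the lowest medians of the 8 amino acid lists. Both hold genes beside the direct path of Hal and Tdo2 as well as later steps of it. In the histidine and one-carbon list the median difference was -0.30 over 7 tested genes, with 5 lower. Uroc1, the urocanase that acts directly after Hal, read 11.65, 12.39 and 12.31 in the wild type and 11.07, 11.20 and 12.30 in the knockout. Its difference was -0.60 (SE 0.35, limma adjusted p = 0.796). On this probe set knockout replicates 1 and 2 were low, as for Hal. The dimmer Uroc1 probe set differed by -0.32 and had only knockout replicate 1, at 7.63, below every wild-type liver. Amdhd1, the next enzyme of that path, differed by 0.48 (SE 0.42), and Ftcd, which ends it, by -0.13 (SE 0.18). Hdc, which makes histamine from histidine and is mostly a gene of other cells, had the smallest p of the list at -0.60 (SE 0.21, unadjusted p = 0.0198, adjusted p = 0.76), and differed by 0.095 on its dimmer probe set. Without knockout replicate 1 the list median was -0.12, and without knockout replicate 3 it was -0.46.

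In the tryptophan and kynurenine list the median difference was -0.33 over 8 tested genes, with 6 lower. Kynu, the kynureninase gene, read 7.53, 6.89 and 5.85 in the wild type and 6.23, 5.89 and 5.01 in the knockout. Both groups had their lowest value in replicate 3 and overlapped. The Kynu difference was -1.04 (SE 0.45, limma adjusted p = 0.772), with the smallest p of its list. Ido2, a tryptophan dioxygenase beside Tdo2, differed by -0.38 (SE 0.21), Kmo by -0.33 (SE 0.26) and Haao by -0.34 (SE 0.29). Aadat differed by -0.40 (SE 0.28) and Qprt by -0.089 (SE 0.20). Afmid, which acts directly after Tdo2, had higher values in the knockout, at 6.71, 6.44 and 6.63 in the wild type against 6.83, 7.05 and 6.77. Its groups did not overlap, and its difference was 0.29 (SE 0.19, limma adjusted p = 0.796). Kyat3 differed by 0.11 (SE 0.20). None of the 8 genes passed the test. Without knockout replicate 1 the median of this list was -0.12, and without knockout replicate 3 it was -0.46.

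Among the remaining amino acid lists the differences pointed both ways. Gch1, which starts the synthesis of tetrahydrobiopterin, read 9.60, 9.88 and 10.03 in the wild type and 10.53, 10.88 and 10.03 in the knockout. The groups were apart by less than 0.01 log2 units, and the difference of 0.65 (SE 0.25) had an unadjusted limma p of 0.0313 and an adjusted p of 0.769, with 0.24 on its second probe set. Bckdha, a subunit of the dehydrogenase of branched-chain keto acids, had means of 8.19 ± 0.39 (SD, n = 3) in the wild type and 8.80 ± 0.066 in the knockout (limma adjusted p = 0.76), and its groups did not overlap. Hsd17b10, a mitochondrial dehydrogenase of isoleucine breakdown, differed by -0.54 (SE 0.24) on its brightest probe set and by -0.08 on the other. Tat, the tyrosine aminotransferase gene induced by glucocorticoids, differed by 0.072 (SE 0.30).

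The list medians were -0.064 for phenylalanine and tyrosine (8 genes), -0.12 for methionine and cysteine (11), -0.17 for branched-chain amino acids, lysine and propionate (22), -0.013 for serine, glycine and threonine (16) and -0.025 for proline and hydroxyproline (4). In the lists without a gene at an unadjusted p under 0.05, the smallest p belonged to Cbs, Dmgdh and Prodh. Cbs, the first enzyme of transsulfuration, differed by -0.50 (SE 0.27), and by -0.11 on its dimmer probe set. Dmgdh, the mitochondrial dehydrogenase of dimethylglycine, differed by -0.32 (SE 0.18) and Prodh, the proline dehydrogenase, by -0.40 (SE 0.30). The median of the proline list changed sign with the array left out, from -0.19 without wild-type replicate 1 to 0.18 without wild-type replicate 3.

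**Figure D4:**
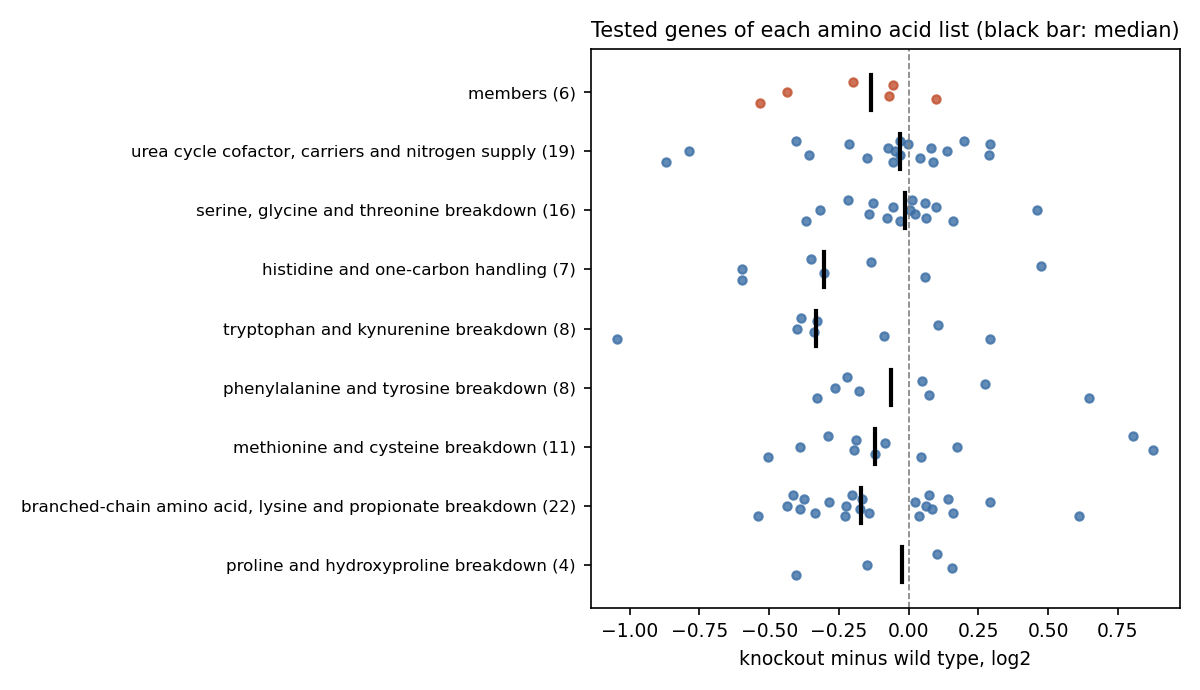
Knockout minus wild-type difference in log2 units (horizontal axis) for each tested gene of the amino acid lists, with the enzymes of this report in red, the number of tested genes in parentheses and the list median as a black bar. The medians of the histidine (-0.30) and tryptophan (-0.33) lists lie farthest to the left, and every list holds genes on both sides of 0.

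Regulators and context genes were read the same way. Of all tested genes, 54.6% were lower in the knockout livers, and at an unadjusted p under 0.05 3.04% were higher and 3.42% lower. Of 14 tested regulators of amino acid breakdown genes limma called 0, and 11 were lower, with a median of -0.17. Foxa2, a liver transcription factor, had the smallest p of that list at -1.03 (SE 0.42, unadjusted p = 0.0373, adjusted p = 0.769) and was lowest in knockout replicate 1, at 5.53. Of 9 fasting and glucagon response genes 8 were higher, with a median of 0.092. Angptl4, a lipase inhibitor raised in fasting, differed by 1.06 (SE 0.40, limma adjusted p = 0.763). It read 8.53, 10.37 and 9.59 in the wild type and 10.67, 10.53 and 10.47 in the knockout, so wild-type replicate 2 was near the knockout livers. Pck1, the gene of the gluconeogenic enzyme PEPCK and a gene of the portal side, differed by 0.010 (SE 0.17).

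Of the 8 tested portal genes outside the set 4 were higher and 4 lower, with a median difference of -0.031, and of the 10 central genes 3 were higher and 7 lower, with a median of -0.063. Sult5a1, a sulfotransferase gene of the portal list, read 10.47, 11.25 and 11.22 in the wild type and 9.79, 8.79 and 9.89 in the knockout. Its groups did not overlap and its difference was -1.49 (SE 0.34), with an unadjusted limma p of 0.00198 and an adjusted p of 0.544. In the central list Tbx3 had the smallest p, at -0.31 (SE 0.28).

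Clock output genes that peak with DBP were higher in all 9 tested members, with a median of 0.42 and 0 called by limma. The genes with the smallest p were Nr1d1 (0.86, SE 0.23), Wee1 (1.11, SE 0.30) and Dbp (0.64, SE 0.27). Nr1d1 had an unadjusted limma p of 0.0048 and an adjusted p of 0.678. The groups did not overlap in these 3 genes, against 4.27% of all tested genes higher without overlap. The median deviation of this list from its mean over the livers was 0.72 in knockout replicate 1, against 0.12 in knockout replicates 2 and 3 and -0.28, -0.42 and -0.080 in wild-type replicates 1 to 3. Hal (-0.81) and Tdo2 (-0.47) had their lowest deviation in knockout replicate 1, where the clock list was highest, and their highest (0.54 and 0.33) in wild-type replicate 2, where it was lowest. Cps1 went with the clock list in these livers, at 0.22 and -0.20, but not in all of them. Its lowest deviation was -0.29 in knockout replicate 3, where the clock list was at 0.12. Hal and Tdo2 did not run opposite to the clock list in all livers either. In knockout replicates 2 and 3 the clock list stood at 0.12, but Hal was at -0.465 and 0.476. Tdo2 was at -0.27 and 0.089 in the same 2 livers. The part of the clock genes' difference in the values of the enzymes was not tested.

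Markers of other cell types had overlapping group ranges of their summed level, a sum of linear values that the brightest marker of a list can carry. For Kupffer cells and macrophages (10 measured genes) the range was 13.15 to 13.39 in wild-type and 13.26 to 13.40 in knockout livers. It was 8.86 to 9.56 against 8.80 to 10.13 for lymphocytes (9 genes), 8.88 to 9.67 against 9.09 to 10.48 for neutrophils (6) and 9.99 to 10.42 against 9.67 to 10.53 for red cells (4). For endothelial cells (7) it was 11.62 to 11.67 against 11.54 to 11.65, for stellate cells and fibroblasts (9) 11.86 to 12.34 against 11.83 to 12.20, and for bile duct cells (4) 6.51 to 6.90 against 6.32 to 6.60. Of the 4 pancreatic acinar markers measured, 2 were under the minimum of 4, and the sum lay between 9.79 and 10.76 in wild-type and between 9.31 and 9.97 in knockout livers. Bile duct markers had 1 of 4, lymphocyte markers 1 of 9, red cell markers 2 of 4 and neutrophil markers 3 of 6 under the minimum. Gene by gene, 8 of 10 tested Kupffer cell markers were higher in the knockout, with a median of 0.19, and the groups did not overlap for C1qa (1.05, SE 0.35) and Cd68 (0.50, SE 0.20). The 2 lower ones were Csf1r (-0.63) and Clec4f (-0.15). Among the red cell markers Slc4a1 differed by 1.32 (SE 0.38, limma adjusted p = 0.725), also without overlap, and Alas2 by -0.14. All 3 tested neutrophil markers were higher, with a median of 0.69 and overlapping groups, highest in knockout replicates 2 and 3. Other markers were lower in the knockout without overlap. These were 3 of 9 stellate cell and fibroblast markers, 1 of 7 endothelial markers and 1 of 3 tested bile duct markers, Sox9 (-0.91). Of all tested genes, 4.27% were higher and 5.48% lower without overlap. Limma called 0 of the tested markers, and their part in the differences of the enzymes was not tested.

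Hal, as the enzyme with the largest SD over the 6 livers (0.54), was also compared with every other tested gene by profile. Each profile was centred on its own mean, and likeness was the largest gap between the 2 profiles in any of the 6 livers. The 5 nearest genes were Ppdpf, Exoc1, Ndufv1, Lgals3bp and Fdx1, with gaps of 0.147 to 0.151 log2 units. Ndufv1, a subunit of respiratory complex I, read 11.63, 12.06 and 11.69 in the wild type and 10.82, 10.91 and 12.01 in the knockout. Fdx1, a mitochondrial ferredoxin, read 10.78, 11.24 and 11.28 against 10.15, 10.42 and 11.18. Like Hal, both were low in knockout replicates 1 and 2 and back in the wild-type range in knockout replicate 3. This likeness follows from how the genes were picked and is no separate result.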

How the data were processed

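Gene expression was measured on 6 one-colour Affymetrix arrays. The authors deposited log2 values which the submitters' processing notes, per the labels, tie to GCRMA 2.20.0 and R 2.11.1. The log2 scale was read from the range of the values, and the sources used here do not give the settings of the normalization between arrays. GCRMA pulls dim probe sets to low values, and the values carry no detection call. The number of arrays limits the precision. Of 22626 probe sets, 20380 had 1 gene symbol in the platform annotation, 691 several and 1555 none.

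Groups were compared by lmFit and eBayes of limma 3.58.1 (R 4.3.3, 2-sided, no further normalization) over all 8343 genes with a mean of at least 4, and p-values were adjusted by Benjamini and Hochberg over all of them. There were 4 residual and 4.6 prior degrees of freedom. The code was tested on simulated data. The enzymes and lists were chosen with earlier results of these data known. Named genes were the set itself, Sirt7, fixed pathway genes, up to 3 genes of each list with an unadjusted p under 0.05 (otherwise the 1 with the smallest p), and the 5 profiles nearest to the most variable enzyme. Cxcl14, Asns, G6pc, Alb, Apob, C1qa, Cd68, Csf1r, Clec4f, Sox9, Slc4a1, Alas2 and further histidine and tryptophan genes were added after their values were seen. Some of the fixed pathway genes are not reported here. Replicate numbers were not used to pair the samples. Deviations of same-numbered samples correlated at -0.089, -0.091 and -0.194, and those of differently numbered samples at -0.251 to 0.315. With 3 arrays a group these values cannot show whether the samples were paired.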

Additional observations from a re-analysis of the deposited data

How the results depend on the processing

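The count of called genes was 1 with the mean of probe sets per gene, 4 with an intensity trend and 1748 with array weights, against 2 in the fit reported. It lay between 1 and 38 when 1 array was left out, reaching 38 where wild-type replicate 3 was dropped, 7 for wild-type replicate 2, 5 for knockout replicate 1 and 1 for each of the other knockout replicates. Among the 6 enzymes 0 were called in 13 of 14 alternatives and 2, Hal and Tdo2, with array weights. The background in the fit with array weights was 1748 of 8343 tested genes. Their median difference was -0.33 with array weights and between -0.25 and -0.083 when 1 array was left out. The sign of Otc turned under quantile normalization (0.016) and without wild-type replicate 2, with a leave-one-out range of -0.099 to 0.0067. That of Arg1 turned without knockout replicate 2, with a range of -0.16 to 0.031. With the replicate number as a block 2 genes and 0 enzymes were called, and the block changed no call among the enzymes. Each probe set on its own, an alternative chosen after seeing the data, gave 2 called probe sets. The cause of these changes was not tested. The number of arrays, 3 a group, limits the precision.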
